A study of Mus musculus with 6 samples.

Results

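Transcripts of 10 acute phase proteins were measured in mouse liver, namely Saa1, Saa2, Saa3, Saa4, Hp, Orm1, Orm2, Lcn2, Itih3 and Itih4. They were taken by gene symbol from a table of read counts with 56674 rows, and all 10 were found. All 10 also passed the filter on low counts, which left 17871 genes for testing. The livers came from male C57BL/6 mice, a common inbred strain, reared for 71 weeks. The control group (3 libraries) received normal chow, and the PB-MP group (3 libraries) received chow to which polypropylene black microplastic, abbreviated PB-MP, had been added. The comparison addressed whether long dietary exposure to this plastic alters gene expression in the liver. The dose of the plastic and the time at which feeding began are not given in the labels. The labels number the libraries 1 to 3 in each group but do not say that each came from a separate animal, so p-values measure the spread between these libraries, which may be technical.

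The acute phase response is the change in plasma proteins that follows infection or tissue injury. Interleukin-6, interleukin-1 and tumour necrosis factor act on hepatocytes through STAT3, C/EBP factors and NF-kappaB, and the liver then secretes acute phase proteins. Saa1 and Saa2 encode the serum amyloid A proteins that bind high-density lipoprotein, and their transcripts are the classical strongly inducible acute phase transcripts of mouse liver. Saa3 is made largely outside hepatocytes, by macrophages and adipocytes among others, and Saa4 encodes the constitutive family member. Haptoglobin (Hp) captures free haemoglobin, the orosomucoids (Orm1, Orm2) are plasma lipocalins that carry small lipophilic ligands, and lipocalin-2 (Lcn2) binds bacterial siderophores. Itih3 and Itih4 encode heavy chains of the inter-alpha-trypsin inhibitor family, of which Itih3 can be linked to hyaluronan.

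The members fall into a few gene clusters. In the RefSeq annotation of GRCm38.p6, Saa3, Saa4, Saa1 and Saa2 are consecutive coding genes, Orm1 and Orm2 are separated by Orm3, and Itih4, Itih3 and Itih1 are consecutive. Some members are near copies of each other. The coding sequences of Saa1 and Saa2 were identical at 348 of 366 bases (95.1%), and those of Orm1 and Orm2 at 558 of 621 (89.9%). Stretches of 50 bases shared exactly between the transcripts made up 9.11% of those in Saa1 and 20.4% of those in Orm1. The longest shared run was 76 bases for Saa1 and Saa2 and 141 bases for Orm1 and Orm2. A read that lies wholly within a shared run cannot be assigned to 1 gene, whereas a read that reaches past it can. How many reads are affected depends on the read length, which was not used here. Each of these pairs is therefore given below also as a sum. RefSeq lists Saa1 and Saa2 as older names of each other, so the names may be exchanged in other sources. No exon of another gene overlapped the exons of any member in the GENCODE M21 annotation.

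The sequences before the transcription start are shown because C/EBP and STAT3 are the textbook regulators of these genes. RefSeq windows were found for 8 of the 10 members, and the 220 bases before the start are printed 5′ to 3′ on the gene's strand, in GRCm38.p6 coordinates. Capitals mark matches to the C/EBP motif TTNNGCAA or to the STAT3 motif TTCNNNGAA, searched on both strands.
Saa1 (chr7:46742981-46743200, minus strand): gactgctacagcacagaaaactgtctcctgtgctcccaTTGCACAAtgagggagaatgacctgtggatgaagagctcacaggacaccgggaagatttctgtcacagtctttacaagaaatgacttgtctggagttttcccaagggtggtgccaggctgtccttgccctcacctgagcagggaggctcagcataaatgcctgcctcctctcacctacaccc
Saa2 (chr7:46751613-46751832, plus strand): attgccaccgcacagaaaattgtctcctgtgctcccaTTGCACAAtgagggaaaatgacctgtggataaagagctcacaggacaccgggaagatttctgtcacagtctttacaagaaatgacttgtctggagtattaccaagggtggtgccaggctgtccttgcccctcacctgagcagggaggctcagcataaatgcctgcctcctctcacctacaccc
Saa3 (chr7:46715677-46715896, minus strand): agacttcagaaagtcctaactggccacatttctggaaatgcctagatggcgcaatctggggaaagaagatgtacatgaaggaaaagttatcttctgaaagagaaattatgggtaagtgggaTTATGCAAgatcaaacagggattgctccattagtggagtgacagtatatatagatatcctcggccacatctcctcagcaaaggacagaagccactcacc
Saa4 (chr7:46732604-46732823, minus strand): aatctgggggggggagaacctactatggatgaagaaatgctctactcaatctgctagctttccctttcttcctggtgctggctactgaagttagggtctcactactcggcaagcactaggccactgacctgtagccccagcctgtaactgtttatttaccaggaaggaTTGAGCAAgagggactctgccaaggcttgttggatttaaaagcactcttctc
Orm2 (chr4:63362229-63362448, plus strand): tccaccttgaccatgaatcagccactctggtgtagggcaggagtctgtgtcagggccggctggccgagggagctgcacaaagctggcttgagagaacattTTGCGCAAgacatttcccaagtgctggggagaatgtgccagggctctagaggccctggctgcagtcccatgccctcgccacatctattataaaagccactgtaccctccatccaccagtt
Lcn2 (chr2:32387740-32387959, minus strand): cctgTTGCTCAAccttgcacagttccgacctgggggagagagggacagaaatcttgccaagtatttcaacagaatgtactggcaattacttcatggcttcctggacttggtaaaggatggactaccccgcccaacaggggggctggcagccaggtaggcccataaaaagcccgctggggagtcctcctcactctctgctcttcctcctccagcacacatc
Itih3 (chr14:30923588-30923807, minus strand): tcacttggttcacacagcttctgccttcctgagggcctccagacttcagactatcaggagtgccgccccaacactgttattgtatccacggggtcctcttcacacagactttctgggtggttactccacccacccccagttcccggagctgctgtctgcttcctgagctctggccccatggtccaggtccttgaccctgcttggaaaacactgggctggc
Itih4 (chr14:30886256-30886475, plus strand): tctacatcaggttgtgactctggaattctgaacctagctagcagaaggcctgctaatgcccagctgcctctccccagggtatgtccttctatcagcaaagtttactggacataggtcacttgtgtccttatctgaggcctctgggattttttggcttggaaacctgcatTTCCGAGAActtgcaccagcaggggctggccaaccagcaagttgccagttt
The windows of Saa1 and Saa2 were nearly the same sequence, with 211 of 220 bases identical. Both hold the match TTGCACAA, at bases -182 to -175 in Saa1 and -183 to -176 in Saa2, counted back from the start. The C/EBP motif was present in the 250 bases before the start in 6 of the 8 members, namely Saa1, Saa2, Saa3, Saa4, Orm2 and Lcn2, against 9.57% of 32841 windows of that length in RefSeq. Saa4 held it at 2 places, of which the farther is outside the stretch printed. The STAT3 motif was present in 1 of the 8, Itih4, against 7.02% of windows. The NF-kappaB consensus, held by 7.25% of windows, was found in none of the 8. No window of a member held matches to more than 1 of the motifs. Itih3 held none of these motifs, which says only that these letters are not in its window.

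The libraries held between 68357478 and 112566641 counted reads, and the 10 transcripts together took 0.342% to 0.513% of them. Levels are given in CPM, read counts scaled to a common library size by the trimmed mean of M-values (TMM), on which 3 reads correspond to 0.0285 to 0.0495 CPM. A gene at 0 reads could be present up to that level, counting error only, and the lowest count of any member in any library was 133 reads. Hepatocyte markers such as Alb and Cyp2e1 summed to between 62863 and 80203 CPM, as the label of the tissue says. Control replicate 2 had the largest share of ribosomal RNA, and PB-MP replicate 3 the highest sum of Kupffer cell and macrophage markers. Ribosomal RNA rows made up 13.0% of control replicate 2, with 10.6% in PB-MP replicate 2, against 1.12% to 4.68% in the other 4. Mitochondrial ribosomal RNA is counted in these rows and also in the rows of the mitochondrial genome. The 9 Kupffer cell and macrophage markers summed to 390 CPM in PB-MP replicate 3, against 142 to 170 in the other 5 libraries. Rows of the mitochondrial genome took 14.9% to 16.4% of reads in control and 9.24% to 11.3% in PB-MP, and the scaling factors of the groups did not overlap either, at 0.887 to 0.961 and 1.04 to 1.12.

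None of the 10 acute phase transcripts passed the test for a difference between the diets. At an adjusted p below 0.05 the number called was 0 of the 10 members, and 0 of all 17871 genes tested, a background of 0.00% (edgeR quasi-likelihood test, Benjamini-Hochberg adjustment). DESeq2 called 0 members against 2.44% of the genes it tested, and limma-voom called 0 members and 0.00% of genes. At an unadjusted p below 0.05 in edgeR there was 1 member, Itih3, against 12.1% of all genes tested, so the share in the list is near the background. Estimates were above 0 for 6 members and below 0 for 4, where 50.6% of all genes were above 0 and 49.4% below. The median log2 fold change of the members was 0.12, beside 0.01 for all genes tested. The 95% interval lay within -1 to 1 for 6 of the 10 members, which bounds those differences to less than 2-fold either way, against 45.7% of all genes. For Saa1, Lcn2, Itih3 and Itih4 the upper end of the interval passed 1, and for no member did the lower end pass -1.

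**Figure D1:**
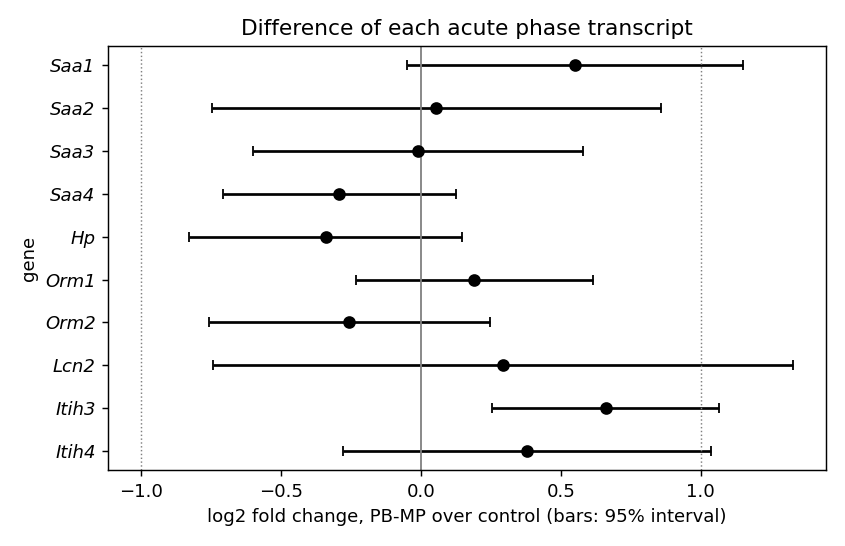
Log2 fold change of each of the 10 transcripts, PB-MP over control (x axis), with bars for the 95% interval of the edgeR fit over 3 libraries a group; dotted lines mark -1 and 1. The interval lies clear of 0 for Itih3 alone, from 0.25 to 1.07, and the other 9 intervals include 0.

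Per kilobase of the longest coding transcript, Hp was the most abundant member by a wide margin. Its level ran from 1512 to 2386 CPM per kilobase over the 6 libraries, with a median of 1709, and its CPM ranked 66 among 17871 genes. Orm1 followed at 454 to 649 CPM per kilobase (median 476), above Itih4 in all 6 libraries, and neither it nor Hp overlapped its lower neighbour. Itih4 (188 to 389, median 281 CPM per kilobase) overlapped Itih3 (119 to 229, median 156), and Itih3 overlapped Saa4 (77.9 to 127, median 93.4). Within a library Itih4 was above Itih3 in 6 of 6 and Itih3 above Saa4 in 5 of 6. The remaining 5 were lower than Saa4 in every library, and each overlapped the next in order. Orm2 had 22.7 to 38.2 CPM per kilobase (median 26.6), Saa1 10.3 to 23.3 (median 13.7) and Saa2 7.90 to 18.1 (median 14.2), and Saa1 was above Saa2 in 3 of 6 libraries. Lcn2 had 2.40 to 8.61 CPM per kilobase (median 5.59). Saa3 came last, at 1.53 to 2.49 (median 1.88). The order of the lowest members depends on the transcript chosen, since with the shortest coding transcript in place of the longest its mean was 7.58 CPM per kilobase, above that of Lcn2 at 5.51, and the mean of Saa2 was 17.9, above that of Saa1 at 15.1. Itih3 has only a short fragment as its shortest coding model, which gives no usable level. With all exons of a gene merged as its length, Saa1 was at 3.72, Saa2 at 3.63, Lcn2 at 1.91 and Saa3 at 1.61 CPM per kilobase, in the same order.

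**Figure D2:**
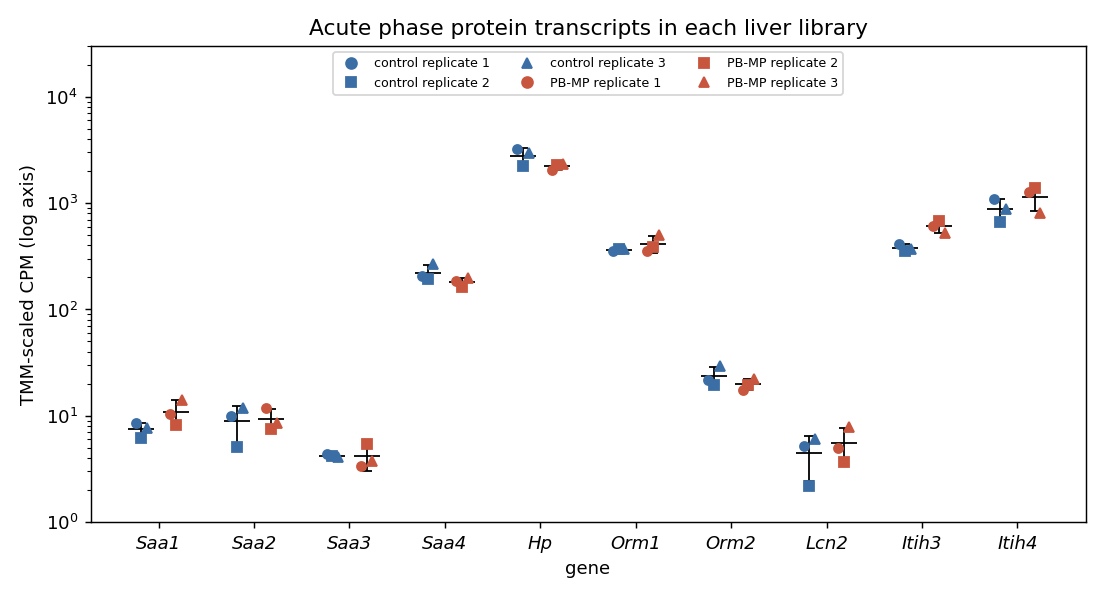
TMM-scaled CPM of each transcript (y axis, log scale) in the 6 libraries, control in blue and PB-MP in red, with the mean and SD of each group (n = 3) in black; CPM is not divided by length here, so levels are to be compared within a gene. The PB-MP points of Itih3 all lie above its control points, and those of the other 9 genes overlap.

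Among the serum amyloid A genes, Saa1 had the largest estimate. Control replicates 1, 2 and 3 had 8.48, 6.25 and 7.71 CPM, in that order, which is also used for the values that follow. PB-MP replicates 1, 2 and 3 had 10.5, 8.23 and 14.2 CPM. The groups overlapped, since PB-MP replicate 2 lay below control replicate 1. Means were 7.48 ± 1.13 and 10.96 ± 3.01 CPM (SD, n = 3), a log2 fold change of 0.55 ± 0.26 (SE) with an edgeR adjusted p of 0.442. The highest value was that of PB-MP replicate 3, the library with the most Kupffer cell and macrophage markers, and without it the log2 fold change was 0.32. Without control replicate 2 as well it was 0.19. All 9 Kupffer cell and macrophage markers had estimates above 0, with summed levels of 142 to 160 CPM in the control libraries and 149 to 390 in the PB-MP libraries, and their part in the Saa1 value was not tested. In bulk samples fewer cells of a type and less RNA per cell cannot be told apart.

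Saa2 did not follow Saa1 from library to library, although their promoters and coding sequences are so alike. The control libraries had 9.96, 5.15 and 11.8 CPM, and the PB-MP libraries 11.8, 7.56 and 8.55. Control replicate 2 was low and the remaining libraries of both groups were mixed. Its log2 fold change was 0.05 ± 0.34 (SE), with an interval of -0.75 to 0.86 and an edgeR adjusted p of 0.962. The sign turned to -0.25 without control replicate 2 and to -0.15 without PB-MP replicate 1. Reads of Saa1 came to 0.851, 1.21 and 0.655 times those of Saa2 in control, and to 0.885, 1.09 and 1.66 times in PB-MP, where replicate 3 had the highest ratio of the 6. As a sum, in which the division of shared reads does not matter, Saa1 and Saa2 averaged 16.4 ± 4.40 CPM on normal chow and 20.3 ± 3.89 on PB-MP chow (SD, n = 3), with overlapping groups.

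Saa3, the form made largely outside hepatocytes, averaged 4.22 ± 0.165 CPM on normal chow and 4.19 ± 1.14 on PB-MP chow (SD, n = 3). The control libraries were close together, at 4.39, 4.21 and 4.06 CPM, and the PB-MP libraries lay on both sides of them, at 3.36, 5.48 and 3.72. The log2 fold change of -0.01 ± 0.25 (SE) turned sign in 8 of 18 alternatives, to 0.20 with library size as the scaling. Saa3 did not share the high value of Saa1 in PB-MP replicate 3, where the macrophage markers were highest. Of 7 adipocyte markers Lep was at 0 reads in all libraries, Adipoq had at most 9 reads in any library and Plin1 at most 5. The 7 summed to 49.1 to 166 CPM on normal chow and 76.4 to 94.2 on PB-MP chow, most of it from Plin4 and Cidea. Of the 4 tested, Cfd (log2 fold change -3.11 ± 0.65), Retn (-3.02 ± 0.84) and Cidea (-2.50 ± 0.82) were lower without overlap, as were 8.49% of all genes tested. Plin4 had an estimate of 0.53 ± 0.31 (SE for all 4). None of the 4 passed the threshold (edgeR adjusted p of 0.207, 0.260, 0.328 and 0.535 in the order named). Retn was near the floor, with 18, 11 and 35 reads in control and 0, 4 and 4 in PB-MP. Retn, Cfd, Adipoq and Plin1 were named after their values were seen. The part of the adipocyte markers in Saa3 was not tested. Saa4, the constitutive form, had 208, 194 and 265 CPM in the control libraries, against 186, 163 and 197 in those of PB-MP. PB-MP replicate 3 was above control replicate 2, so the groups overlapped, and the log2 fold change was -0.29 ± 0.18 (SE, edgeR adjusted p = 0.548).

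Hp, which encodes the haemoglobin-binding haptoglobin, was lower in PB-MP by estimate but did not pass. The control libraries had 3209, 2239 and 2945 CPM, and the PB-MP libraries 2034, 2271 and 2327. Control replicates 1 and 3 were high, while control replicate 2 fell among the PB-MP libraries. Means were 2798 ± 501 and 2211 ± 155 CPM (SD, n = 3), a log2 fold change of -0.34 ± 0.21 (SE, edgeR adjusted p = 0.549), with an interval of -0.83 to 0.15. Without control replicate 2 it was -0.50 (adjusted p = 0.256). The share of Hp in the reads of the 10 genes, which like any share within a library is free of the scaling, was 60.2%, 58.0% and 60.1% in control and 45.2%, 46.1% and 52.8% in PB-MP, so here the groups did not overlap. The share also falls when Itih3 and Itih4 are higher, as described below, and it was not tested. For comparison, 19.8% of single genes tested had no overlap, and how often such shares have none was not counted. Cd163, the macrophage receptor for haptoglobin bound to haemoglobin, averaged 2.88 ± 1.497 CPM and 5.23 ± 0.620 CPM in the same order of groups (SD, n = 3, edgeR adjusted p = 0.467). Hpx, the haem-binding hemopexin, had a log2 fold change of -0.10 ± 0.21 (SE).

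Of the orosomucoids, Orm1 carried 12.5 to 22.5 times the reads of Orm2. Orm1 was at 352, 369 and 368 CPM in the control libraries, against 354, 387 and 503 in those of PB-MP. Only PB-MP replicate 3 stood out, and the log2 fold change of 0.19 ± 0.18 (SE, edgeR adjusted p = 0.705) was 0.03 without it. Orm2 was at 21.7, 19.5 and 29.6 CPM in the control libraries, against 17.6, 19.4 and 22.3 in those of PB-MP, with a log2 fold change of -0.26 ± 0.21 (SE, adjusted p = 0.670). Here control replicate 3 was high, and the estimate was -0.06 without it. The ratio of Orm1 to Orm2 reads was 16.2, 18.9 and 12.5 in control and 20.1, 20.0 and 22.5 in PB-MP. As a sum, Orm1 and Orm2 averaged 387 ± 12.4 CPM on normal chow and 434 ± 80.4 on PB-MP chow (SD, n = 3), with overlapping groups. The ratio did not overlap between the groups, the nearest values being 18.9 and 20.0. Among single genes tested 19.8% had no overlap, and how often ratios have none was not counted. The ratio does not depend on scaling but was not tested, and shared reads can affect it. The neighbouring Orm3 was at 0 reads in 5 libraries and at 7 reads in control replicate 3.

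Lcn2, the siderophore-binding lipocalin, was the member that varied most between libraries of a group. The control libraries had 5.24, 2.19 and 6.05 CPM, and the PB-MP libraries 4.98, 3.68 and 7.88. Control replicate 2 was the lowest and PB-MP replicate 3 the highest, 3.59 times apart. The pooled SD within groups was 0.68 on the log2 scale, above that of 88.1% of the 12546 genes that averaged 1 CPM or more, whose median was 0.30. The log2 fold change was 0.29 ± 0.44 (SE, edgeR adjusted p = 0.825), with an interval of -0.74 to 1.33, and it was -0.06 without control replicate 2 and -0.06 without PB-MP replicate 3. Lcn2 is also a granule protein of neutrophils. Summed over 12 neutrophil markers the level was 1.52 to 2.15 CPM in control and 3.33 to 5.77 in PB-MP, highest in PB-MP replicate 3. Among single genes tested 19.8% had no overlap, and how often such sums have none was not counted. Csf3r and S100a9 had the highest levels of the 12, and the defining markers Ly6g, Camp and Mpo were at 0 reads in all 6 libraries. Of the 6 tested, 4 had estimates above 0 and 0 passed. Elane was lower without overlap, at -0.79 ± 0.45, and Cxcr2 was at -0.29 ± 0.80 (SE), both named after their values were seen. The part of neutrophils in the Lcn2 level was not tested. Slc22a17, a cell surface receptor for lipocalin-2, averaged 0.334 ± 0.0832 CPM on normal chow and 1.04 ± 0.676 on PB-MP chow (SD, n = 3, edgeR adjusted p = 0.326) and was named after its values were seen.

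Itih3 was the member furthest from 0 and the 1 member whose groups did not overlap, where 19.8% of all genes tested had no overlap, 11.4% being higher and 8.49% lower with PB-MP. The control libraries had 416, 357 and 374 CPM, and the PB-MP libraries 609, 684 and 518. Each PB-MP library lay above each control library, the nearest pair being PB-MP replicate 3 and control replicate 1. Means were 382 ± 30.4 and 604 ± 83.1 CPM (SD, n = 3), a log2 fold change of 0.66 ± 0.17 (SE) with an interval of 0.25 to 1.07. The fitted fold was 1.58, with an interval of 1.19 to 2.09. The unadjusted p was 0.00629 and the adjusted p 0.250 in edgeR, so Itih3 did not pass over all genes. DESeq2 gave an adjusted p of 0.0777, which did not pass either. Leaving out 1 library in turn kept the estimate between 0.56 and 0.76, and the smallest adjusted p over all 18 alternatives was that of DESeq2.

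Itih4, next to Itih3 in the genome, had overlapping groups. The control libraries had 1096, 663 and 889 CPM, and the PB-MP libraries 1265, 1373 and 806. PB-MP replicates 1 and 2 were the 2 highest libraries, while PB-MP replicate 3 lay below control replicates 1 and 3. The log2 fold change was 0.38 ± 0.28 (SE, edgeR adjusted p = 0.620), and it was 0.58 without PB-MP replicate 3 and 0.18 without control replicate 2. Reads of Itih4 came to 2.64, 1.86 and 2.38 times those of Itih3 in control and to 2.08, 2.01 and 1.56 times in PB-MP, with overlapping groups. The other genes of the family were nearer to 0. The log2 fold changes of Itih1 and Itih2, which encode the heavy chains of inter-alpha-inhibitor, were 0.17 ± 0.20 and 0.11 ± 0.24 (SE). Ambp, which encodes the light chain bikunin, was at 0.13 ± 0.17 with 1539 ± 66.0 CPM on normal chow and 1682 ± 147 on PB-MP chow (SD, n = 3).

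The libraries did not rank the members in 1 common order. Control replicate 2 was the lowest of its group for 8 of the 10 members, the exceptions being Saa3 and Orm1, and it was the lowest of all 6 libraries for Saa1, Saa2, Lcn2, Itih3 and Itih4. It is also the library with the largest share of ribosomal RNA, whose part in these values was not tested. PB-MP replicate 3 was the highest of its group for 6 members, Saa1, Saa4, Hp, Orm1, Orm2 and Lcn2, but the lowest for Itih3 and Itih4. Likeness was measured as the root mean square difference between centred log2 CPM over the 6 libraries, where 0 means the same pattern. Saa4 and Orm2 were the most alike at 0.11, Itih3 and Itih4 were at 0.24, and Orm1 and Orm2 at 0.28. Saa1 and Saa2 were further apart at 0.42, and Saa3 and Lcn2 the furthest at 0.70.

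**Figure D3:**
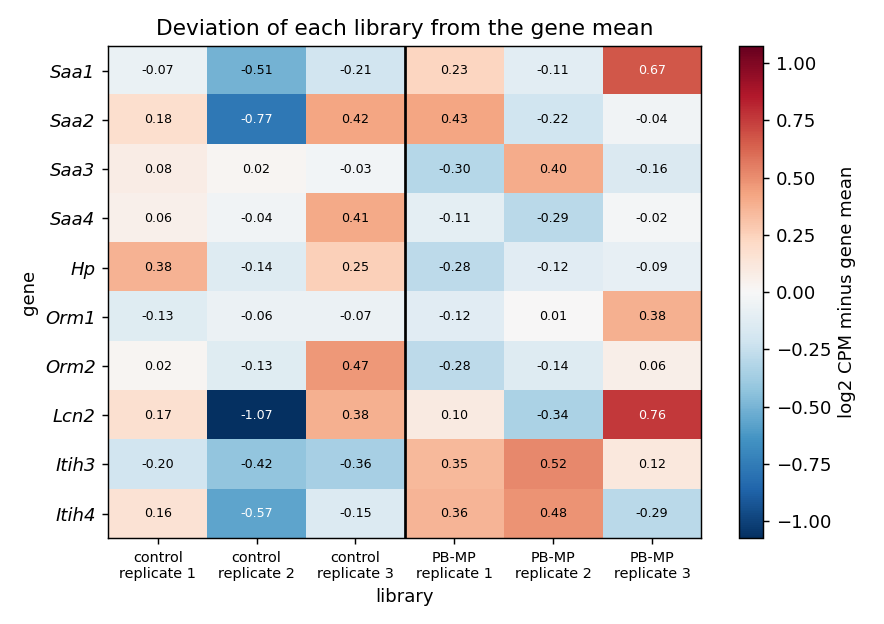
Log2 CPM of each transcript (rows) in each library (columns) minus the mean of that transcript over the 6 libraries; red is above the mean, blue below, and the black line divides control from PB-MP. Itih3 is below its mean in the 3 control libraries and above it in the 3 PB-MP libraries, and Lcn2 has both the lowest cell, in control replicate 2, and the highest, in PB-MP replicate 3.

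Outside the members, 11446 named genes that averaged 1 CPM or more were compared by the same measure. The nearest to Saa1 were Gcgr, the glucagon receptor, at 0.05, and C3ar1, the receptor of the complement fragment C3a, at 0.10. The nearest to Hp was Pgam1, a glycolytic enzyme, at 0.03, and the nearest to Orm1 was Eef1a1, a translation elongation factor, at 0.04. The nearest to Itih3 were Ntng2, Pde4c, a cAMP phosphodiesterase, and Ell, a transcription elongation factor, at 0.08, 0.09 and 0.10, and the nearest to Itih4 was Map2k7, a kinase of the JNK pathway, at 0.09. With 6 libraries and this many genes close matches are easily found, and they are a description only. For Lcn2 even the closest gene, Vps9d1, was at 0.16.

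**Figure D4:**
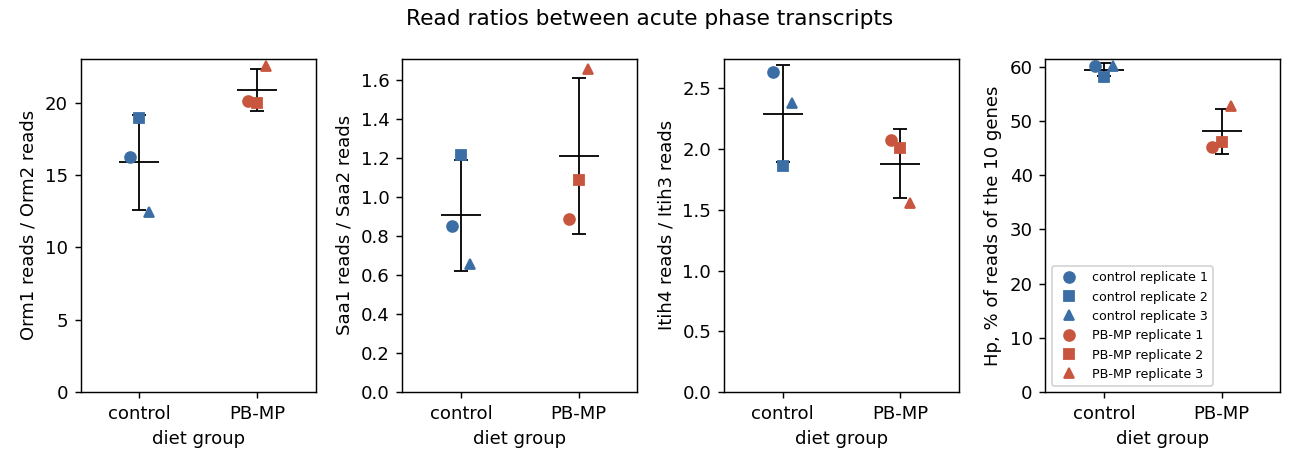
Ratios of reads between members in each library (y axes, no scaling involved) by diet group, with the mean and SD of 3 libraries in black. The groups do not overlap for Orm1 over Orm2 (12.5 to 18.9 against 20.0 to 22.5) or for the share of Hp (58.0% to 60.2% against 45.2% to 52.8%), and they overlap for the other 2 ratios. Among single genes tested 19.8% had no overlap, and the same was not counted for ratios.

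Other genes of the acute phase response did not pass the test either. Of 21 other positive acute phase proteins 19 were tested, 11 with estimates above 0 and 8 below, and 0 passed at an adjusted p below 0.05 in edgeR. Their median log2 fold change was 0.09, and 1 of the 19 had an unadjusted p below 0.05, against 12.1% of all genes. That gene was Fgl1, a hepatocyte-secreted fibrinogen-like protein, which averaged 75.1 ± 18.4 CPM on normal chow and 174 ± 6.22 on PB-MP chow (SD, n = 3), with a log2 fold change of 1.21 ± 0.21 (SE) and an edgeR adjusted p of 0.207. The fibrinogen chain genes Fga, Fgb and Fgg were at 0.01 ± 0.23, 0.25 ± 0.17 and 0.24 ± 0.17. Serpina3n, a protease inhibitor, was at -0.07 ± 0.25 and Crp, the mouse C-reactive protein, at -0.14 ± 0.18, both named after their values were seen. The metallothioneins Mt1 and Mt2 had larger estimates, 1.36 ± 0.73 and 1.82 ± 0.79, with adjusted p of 0.496 and 0.422. Of the 9 negative acute phase proteins, which fall during inflammation, 3 had estimates above 0 and 6 below, with a median of -0.09 and none at an unadjusted p below 0.05. Alb, which encodes albumin, was at 0.03 ± 0.24. Apoa1, the main protein of high-density lipoprotein and a negative acute phase protein, was at 1.18 ± 0.56 and ranged from 1160 to 7076 CPM over the libraries.

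Upstream of the members, most cytokine transcripts had too few reads to test. Of 8 ligands 3 were tested, and Il6 had 0 reads in 5 libraries and 5 reads in PB-MP replicate 3. Il1b was at 0.0960, 0.660 and 0.352 CPM in the control libraries, against 0.735, 0.638 and 2.49 in those of PB-MP, a log2 fold change of 1.81 ± 0.78 (SE, edgeR adjusted p = 0.420). Its highest value was again in PB-MP replicate 3, the library with the most macrophage markers. Tnf was at 1.12 ± 0.49 and Il1a at 0.62 ± 0.37 (SE), so that all 3 tested ligands had estimates above 0, as had 50.6% of all genes, and none passed. Tnf averaged only 0.161 ± 0.060 CPM on normal chow and 0.355 ± 0.128 on PB-MP chow (SD, n = 3), where 3 reads correspond to 0.0285 to 0.0495 CPM. Tnf and Il1b were named after their values were seen.

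Of the 10 cytokine receptors 2 had estimates above 0 and 8 below, with a median of -0.15. Il6ra, the interleukin-6 receptor, averaged 38.7 ± 4.13 CPM on normal chow and 27.4 ± 9.33 on PB-MP chow (SD, n = 3), a log2 fold change of -0.50 ± 0.27 (SE). Lifr, the receptor of leukaemia inhibitory factor, had 68.3 ± 7.59 and 24.7 ± 9.66 CPM, -1.47 ± 0.29 (edgeR adjusted p = 0.207). Lifr and Il1rap, the interleukin-1 receptor accessory protein at 0.47 ± 0.20, were the receptors with an unadjusted p below 0.05 in edgeR, in opposite directions. Of all genes tested 7.35% were higher and 4.74% lower at that threshold.

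Of 13 kinases and transcription factors 5 had estimates above 0 and 8 below, with 2 in each direction at an unadjusted p below 0.05, against 7.35% of all genes higher and 4.74% lower. Among them were Nfkbiz, an inducible NF-kappaB cofactor, at 1.06 ± 0.27 (edgeR adjusted p = 0.244) and Cebpb, a C/EBP factor of the acute phase response, at -0.75 ± 0.32 (edgeR adjusted p = 0.413). The other C/EBP genes listed, Cebpa and Cebpd, were nearer to 0, at -0.26 ± 0.18 and -0.12 ± 0.63, and were named after their values were seen. Stat3, the main signal transducer of interleukin-6, was at -0.16 ± 0.24 with 84.0 ± 13.8 CPM on normal chow and 75.4 ± 20.2 on PB-MP chow. Of 6 tested inhibitors 4 had estimates above 0 and 2 below, with a median of 0.21. Socs3, the feedback inhibitor induced by STAT3, was at 0.39 ± 0.22, Nfkbia, the inhibitor of NF-kappaB, at -0.29 ± 0.23, and Pias3, an inhibitor of STAT3, at 0.46 ± 0.19. None of these passed over all genes. Downstream, 13 of 14 partners and receptors of the members were tested, 9 with estimates above 0 and 4 below, with a median of 0.17. Those with an unadjusted p below 0.05 were 2 of the 13, both higher, against 7.35% of all genes higher, and neither passed over all genes. They were Slc22a17, given above, and Fpr2, a formyl peptide receptor that binds serum amyloid A, named after its values were seen. Fpr2 averaged 0.202 ± 0.114 CPM on normal chow and 0.629 ± 0.475 on PB-MP chow (SD, n = 3, edgeR adjusted p = 0.404). Its groups overlapped, and PB-MP replicate 3 was the highest at 1.17 CPM.

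**Figure D5:**
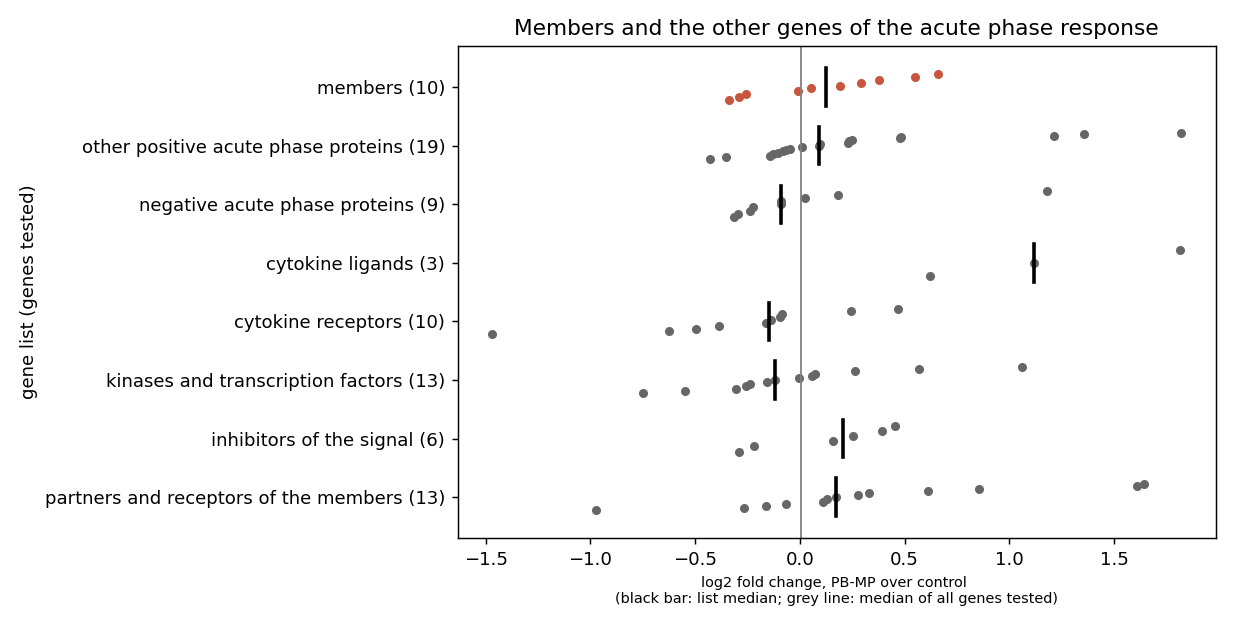
Log2 fold change, PB-MP over control (x axis), of each tested gene (points) in the 10 members, in red, and in 7 lists of related genes, in grey, with the number tested in brackets. Black bars are list medians; the members' median of 0.12 lies near the grey line at the median of all genes, 0.01.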

How the data were processed

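Poly(A)-selected liver RNA was sequenced in 6 directional libraries, per the labels' protocols. Software bcl2fastq and genome build GRCm39 appear in the submitters' processing notes. Aligner, counter, annotation, strand setting and treatment of multi-mapped reads: not given in the sources used here. What the authors deposited are raw counts, whole numbers per gene without normalization. The row with most reads kept a name shared by several rows (939 rows, 0.0308% of reads).

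Genes were filtered with filterByExpr (minimum count 10, minimum total 15), scaled by TMM and tested with the quasi-likelihood test of edgeR 4.0.16 in R 4.3.3, with Benjamini-Hochberg adjustment over all 17871 genes and a threshold of 0.05. The SE is the log2 fold change over the square root of F. Log2 CPM used a prior count of 2. The members and lists were chosen with earlier results of these data known. Genes named beside the members are the 3 of smallest p per list that averaged 1 CPM or more, and a set of fixed anchor genes; others are marked, and some genes that this rule names are not reported here. Lengths come from GENCODE M21 (10 of 10 members matched) and promoters from RefSeq, GRCm38.p6 (8 of 10).

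Alternatives were other scalings, filters, DESeq2 1.42.0, limma 3.58.1, a replicate block and libraries left out. On data simulated for the comparison of PB-MP with control (17483 genes in the fit), 0 of 67 genes with a true 1.5-fold change were recovered, as were 0 of 67 at 2-fold and 24 of 66 at 4-fold, with 5 false calls. No pair of libraries agreed within sampling noise (chi-square per degree of freedom at least 181).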

Additional observations from a re-analysis of the deposited data

How the results depend on the processing

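The number of members past the threshold was 0 in edgeR under each alternative scaling, filter, threshold and left-out library, and 0 in DESeq2 and limma-voom, with and without quality weights. Over all genes, DESeq2 called 512, edgeR called 0 to 1 with 1 library left out (1 without control replicate 1) and 2 without both control replicate 2 and PB-MP replicate 3. With the replicate block, whose numbers are not stated to pair the libraries, 0 genes and 0 members were called and Itih3 was at 0.65 (edgeR adjusted p = 0.420). Deviations of same-numbered libraries correlated at -0.09, 0.09 and 0.08, and those of differently numbered libraries at -0.14 to 0.08. Taken from means of 3 libraries, these values cannot decide whether the numbers pair the libraries.

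Itih3 kept its direction in all 18 alternatives, at 0.56 to 0.87 (adjusted p 0.0777 to 0.604), and so did Saa1, Saa4, Hp, Orm1, Orm2 and Itih4. At an unadjusted p below 0.05 there were 2 members with library size only (Saa1, Itih3; 15.8% of all genes), 2 with quality weights (Hp, Itih3; 23.4%), 2 without both control replicate 2 and PB-MP replicate 3 (Hp, Itih3; 23.8%), and 1 to 2 with 1 library left out (7.92% to 17.8%). Members without overlap numbered 3 with library size only (Saa1, Orm1 and Itih3, higher; 23.9% of all genes), 1 to 4 with 1 library left out (25.8% to 39.9%), and 6 without both named libraries (59.3%). Library size alone moved the median of all genes to 0.23 from 0.01.

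Saa3 turned to 0.20 with library size only, 0.023 with upper quartile, 0.014 with the stricter filter, 0.012 without ribosomal and mitochondrial rows and 0.05 without both libraries, and ran from -0.25 to 0.13 with 1 left out. Saa2 was at -0.18 without both, and at -0.25 to 0.29 with 1 left out. Lcn2 was at -0.032 with quality weights, -0.40 without both, and -0.06 to 0.56 with 1 left out. The cause of these turns was not tested. The simulated test recovered 0 of 67 genes changed 2-fold, so a count of 0 says little of differences of the size seen here. The changed genes of the simulation were few and were drawn from all genes that averaged 1 CPM or more. Recovery for a given member, with its own spread, may therefore differ.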
